A study of Mus musculus with 7 samples.

Results

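The subunits of the mitochondrial respiratory chain were examined in bone of mice lacking Mbtps1 in the osteocyte lineage. They were 90 genes of the 19938 named by a probe set of their own, chosen by symbol and not by any measured value. The symbols begin with Ndufa, Ndufb, Ndufc, Ndufs or Ndufv (complex I, 43 genes), are Sdha to Sdhd (complex II, 4 genes), begin with Uqcr or are Cyc1 (complex III, 9 genes), begin with Cox4 to Cox8 (complex IV, 17 genes) or begin with Atp5 (complex V, 17 genes). The prefix Ndufa also takes in 7 Ndufaf assembly factors, which build complex I without being part of it. Ndufa4 is grouped here by its symbol, although its protein is now counted with complex IV. Cox7c, Ndufb4, Ndufb4b and Ndufs5-ps are read only by probe sets that name several genes and were left out. Of the 90 genes, 89 passed the filter on low signal, and the exception was Cox7b2.

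RNA came from long bones of male mice aged 39 to 41 weeks, cleared of soft tissue and marrow, cut into pieces and taken through 4 rounds of collagenase digestion and EDTA extraction, a preparation that enriches osteocytes, the cells embedded in bone matrix. The 3 knockout mice are labelled DMP1 cre Mbtps1 knockout, and the 4 control mice are littermates labelled wildtype, with no statement of whether they carried the Cre transgene or a floxed allele. Dmp1 regulatory sequence drives Cre mainly in osteocytes and late osteoblasts, so other cells in the bone pieces can keep Mbtps1, which encodes site-1 protease, the Golgi enzyme that cleaves membrane-bound transcription factors such as SREBP and ATF6. Each mouse was read on 1 Affymetrix whole-transcript array, giving linear probe set intensities, and having so few arrays limits precision throughout. The labels do not say whether the mice came from separate litters, so the p-values measure the spread between these 7 samples. Where a bulk tissue gives less signal of a gene, fewer cells of a type and less RNA per cell cannot be told apart.

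The respiratory chain sits in the inner mitochondrial membrane. Complex I takes electrons from NADH and complex II from succinate, ubiquinone carries them to complex III, cytochrome c carries them to complex IV, and complex IV passes them to oxygen. Complexes I, III and IV pump protons, and complex V, the ATP synthase, uses the return flow of protons to make ATP. Most subunits are encoded in the nucleus and a few in the mitochondrial genome. Nuclear promoters of these genes are known for binding sites of NRF1, GABP, YY1 and the estrogen-related receptors, and some complex IV subunits exist in a general form and a form restricted to heart and skeletal muscle, lung, testis or low oxygen. Osteocytes lie far from blood vessels and hold fewer organelles than the osteoblasts they arise from.

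To show what the members share in sequence, the promoters of 73 of the 90 genes were found in a RefSeq promoter table of assembly GRCm38.p6, each spanning 250 bases before to 50 bases after the annotated start of the gene. The palindrome CGCATGCG, the core of the NRF1 site, lay in 11 of these 73 genes (15.1%), against 2.07% of the 27025 genes in the table. The letters CCGGAAG (GABP, either strand) lay in 18 of 73 (24.7%) against 9.93%. The letters AAGATGG (YY1, either strand) lay in 10 of 73 (13.7%) against 7.28%, and AAGGTCA (estrogen-related receptors, either strand) in 7 of 73 (9.59%) against 5.38%. The letters ACGTG, the core of hypoxia response elements, lay in 18 of 73 (24.7%) against 21.8%. The GABP letters can share their last bases with the YY1 or the receptor letters, and each motif was counted on its own. Each match describes the sequence and does not show that a factor is bound. The 6 stretches shown here hold CGCATGCG, in capitals, within 30 bases of flank on each side, all upstream of the annotated start and written 5′ to 3′ on the strand of the gene.
Atp5g2, chr15:102671051-102671118, minus strand: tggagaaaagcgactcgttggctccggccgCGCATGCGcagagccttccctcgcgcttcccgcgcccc
Atp5j, chr16:84835086-84835153, minus strand: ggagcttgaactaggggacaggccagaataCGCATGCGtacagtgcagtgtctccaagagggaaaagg
Atp5k, chr5:108434411-108434478, minus strand: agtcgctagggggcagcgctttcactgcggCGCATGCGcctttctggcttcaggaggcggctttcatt
Cox6a1, chr5:115349082-115349149, minus strand: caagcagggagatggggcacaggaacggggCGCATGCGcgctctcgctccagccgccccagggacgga
Ndufa11, chr17:56717673-56717740, plus strand: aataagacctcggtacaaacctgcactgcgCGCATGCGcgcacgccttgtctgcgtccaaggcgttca
Ndufaf4, chr4:24897941-24898008, plus strand: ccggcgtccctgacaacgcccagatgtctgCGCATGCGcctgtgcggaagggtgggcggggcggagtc

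The targeted gene was read first. Mbtps1 had an intensity of 162, 149, 131 and 152 in controls 1 to 4 and of 115, 107 and 154 in knockouts 1 to 3. The means were 149 ± 12.9 (SD, n = 4) and 125 ± 24.9 (SD, n = 3), and knockout 3 lay inside the control range. The log2 fold change, knockout minus control on the scale log2(intensity + 16) used throughout, was -0.23 with a standard error (SE) of 0.14 (adjusted p = 0.807 in limma; exact permutation p = 0.20, two-sided, where 0.0286 is the smallest possible). It was -0.37 without knockout 3 and -0.14 without knockout 2. The exons read by its probe set were not analysed here, so this value does not check the genotype.

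The respiratory chain genes had a median log2 fold change of 0.04 in knockout against control bone, compared with 0.07 over all 13938 genes tested, and 58 of the 89 (65.2%) lay above 0, against 67.7% of all genes. In limma no member reached an adjusted p under 0.05 (Benjamini-Hochberg), nor did any other gene (0.0% called), and the smallest adjusted p of a member was 0.638. An unadjusted p under 0.05 was seen for 4 members (4.49%) against 6.49% of all genes. Of these 4, Cox6a2 and Ndufa12 were higher in the knockouts (2.25% of members against 3.77% of all genes) and Ndufa4l2 and Cox4i2 were lower (2.25% against 2.71%). In 3 members the knockouts and controls did not overlap (3.37%), against 7.99% of all genes. These shares lie near or under the background of all genes. Ndufa4l2 passed the filter on low signal only through its control level, and without it the counts were 3 of 88 members at an unadjusted p under 0.05 and 2 of 88 without overlap. The median signs rest on scaling and on 1 array: with median centring the members' median was -0.02 and 36 lay above 0 (40.4%, all genes 51.6%), after quantile normalization it was 0.02 with 47 above 0 (52.8%, all genes 55.9%), and without control 4 it was -0.04 with 33 above 0 (37.1%, all genes 56.8%).

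The intervals bound the change in RNA of whole bone pieces on the scale as deposited. They do not bound a change within the cells that carry Cre, because other cells in the pieces add their own signal. The SE of a member's log2 fold change had a median of 0.14 and ran from 0.10 to 0.25. In 81 of the 89 members (91.0%) the whole 95% interval lay within 1.5-fold either way, against 82.0% of all genes. The 8 exceptions were Ndufa4l2, Ndufa12, Sdhd, Uqcrc1, Cox4i2, Cox6a2, Cox6b2 and Cox8c. Each interval covers 1 gene and no joint bound over the members was computed. All 17 complex V genes and 41 of the 43 complex I genes were among the 81.

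**Figure D1:**
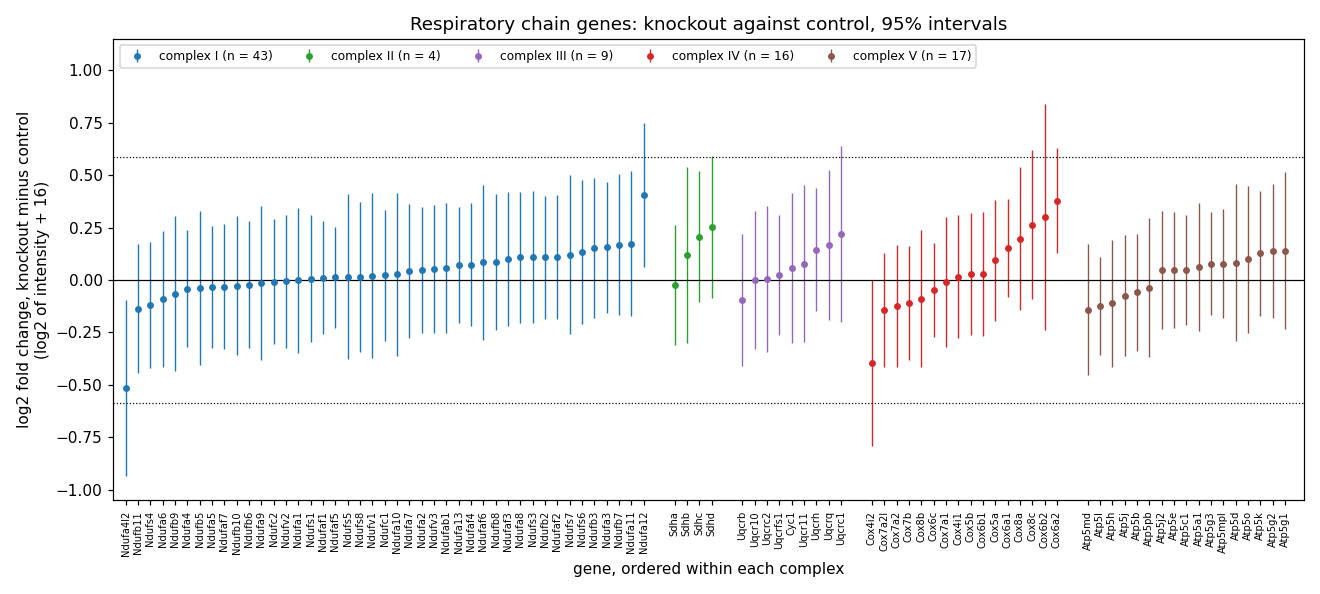
Log2 fold change of each of the 89 tested genes (vertical axis, knockout minus control, log2 of intensity + 16) with its 95% interval, ordered within complexes I to V along the horizontal axis. Dotted lines mark 1.5-fold either way, and Ndufa4l2 at -0.51 and Ndufa12 at 0.41 are the lowest and highest points.

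Complex I was read by 43 genes with a median log2 fold change of 0.02, 28 above 0 and 15 below, where 67.7% of all genes lay above 0. Such counts lean on control 4, without which 33 of the 89 members of all complexes lay above 0. The 6 core subunits on the list (Ndufv1, Ndufv2, Ndufs1, Ndufs3, Ndufs7 and Ndufs8) belong to the matrix arm, which holds the flavin and the iron-sulfur clusters. Of them, 5 lay above 0, with values from -0.01 (Ndufv2) to 0.12 (Ndufs7). Without control 4, Ndufs3 and Ndufs7 were at 0.03. Ndufv1, Ndufv2, Ndufs1 and Ndufs8 were then at -0.14, -0.09, -0.07 and -0.12. Ndufs1, the largest subunit, read 243 ± 31.4 (SD, n = 4) in controls and 243 ± 21.2 (SD, n = 3) in knockouts, and Ndufv1, which holds the NADH-binding flavin site, read 341 ± 75.9 and 341 ± 40.9. The means of both genes thus differed by far less than the SD of either group. Of the 29 accessory subunits, 17 lay above 0, from Ndufb11 at -0.14 (SE 0.14) to Ndufa12 at 0.41. Ndufb7, an accessory subunit of the membrane arm, read 1328, 1284, 1554 and 962 in controls and 1517, 1415 and 1338 in knockouts (log2 fold change 0.17, SE 0.16, limma adjusted p = 0.854), a fold change that was 0.04 without control 4. Its lowest and highest values both came from controls, so the groups overlapped. The 7 assembly factors had a median of 0.07 with 6 above 0, and ran from -0.03 (Ndufaf7) to 0.11 (Ndufaf2).

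Ndufa12, an accessory subunit of the matrix arm of complex I, had the highest log2 fold change of the members. It read 288, 425, 296 and 383 in controls and 444, 473 and 463 in knockouts. Every knockout lay above every control, by a margin smaller than the spread among controls, which fell into a lower pair (controls 1 and 3) and a higher pair (controls 2 and 4). The means were 348 ± 66.9 (SD, n = 4) and 460 ± 15.02 (SD, n = 3), a log2 fold change of 0.41 (SE 0.16, 95% interval 0.06 to 0.75) with a limma adjusted p of 0.742. A single probe set reads it. No other accessory subunit had groups that did not overlap.

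Ndufa4l2, a paralog of Ndufa4 known as a gene induced by hypoxia and present in pericytes, had the lowest log2 fold change. It read 98.4, 76.3, 91.1 and 165 in controls and 62.7, 72.5 and 68.3 in knockouts. All knockouts lay below all controls, and control 4 stood well above the other controls. The means were 107.6 ± 39.1 (SD, n = 4) and 67.8 ± 4.90 (SD, n = 3), a log2 fold change of -0.51 (SE 0.19, 95% interval -0.93 to -0.09, limma adjusted p = 0.709), and -0.32 without control 4. The knockout mean lies under the filter on low signal (69.7), so the gene entered the comparison only through its controls. Its fold change and its lack of overlap are therefore given as a description only. Ndufa4 itself read 1938, 2475, 2121 and 1746 in controls and 1989, 2107 and 1890 in knockouts (-0.04, SE 0.13), with overlapping groups.

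Cox4i2, the form of subunit IV found in lung and other low-oxygen settings and also in pericytes, read 316, 239, 278 and 444 in controls and 218, 244 and 236 in knockouts. Control 4 was again the highest array, and knockouts 2 and 3 overlapped with or lay just under control 2. The log2 fold change was -0.40 (SE 0.18, limma adjusted p = 0.768) and -0.23 without control 4. The general form Cox4i1 read 1612, 1822, 1958 and 1366 in controls and 1803, 1617 and 1663 in knockouts (0.02, SE 0.14). In Cox4i1 control 4 was the lowest array, the reverse of Cox4i2. Markers of the cells that hold both low-oxygen forms were read in lists chosen after values had been seen. Of 9 tested pericyte and vascular smooth muscle markers (10 listed), 8 lay below 0, and their summed intensity was 2386 in control 4, 1402 to 1776 in the other controls and 1424 to 1516 in knockouts. Rgs5, a pericyte gene and the lowest of this list, read 449, 383, 453 and 743 in controls and 369, 349 and 272 in knockouts. Its log2 fold change was -0.56 (SE 0.21, limma adjusted p = 0.682), and -0.37 without control 4. Other genes of the list lay near 0, with Pdgfrb at -0.03, Kcnj8 at -0.02 and Notch3 at 0.06. Of 14 tested hypoxia-induced genes (15 listed), 11 lay below 0 with a median of -0.12. The lowest of them was Bnip3, a mitophagy receptor, which read 230, 220, 289 and 573 in controls and 156, 199 and 201 in knockouts (-0.67, SE 0.26, limma adjusted p = 0.742, and -0.38 without control 4). The highest was Pfkfb4, an enzyme that regulates glycolysis, which read 174, 163, 182 and 126 in controls and 215, 191 and 190 in knockouts (0.29, SE 0.14, limma adjusted p = 0.784). Bnip3 was lower and Pfkfb4 higher in every knockout than in every control. Without control 4, 7 of the 9 pericyte and vascular smooth muscle markers and 9 of the 14 hypoxia-induced genes lay below 0. The median of the pericyte and vascular smooth muscle markers was -0.15 with control 4 and -0.03 without it. That of the hypoxia-induced genes was -0.10 without control 4. Of 9 endothelial markers, 6 lay below 0. The part of these cells or of oxygen supply in the Ndufa4l2 and Cox4i2 values was not tested.

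Cox6a2, the heart and skeletal muscle form of subunit VIa, read 167, 150, 150 and 142 in controls and 198, 215 and 196 in knockouts. Every knockout exceeded every control, and both groups were tight, at 152 ± 10.6 (SD, n = 4) and 203 ± 10.5 (SD, n = 3). The log2 fold change was 0.38 (SE 0.12, 95% interval 0.13 to 0.63, limma adjusted p = 0.638), and it was 0.35 without control 4. It lay past an unadjusted p of 0.05 in all 17 alternative settings, including the removal of each array in turn. That count was 10 of 17 for Ndufa12 and 9 of 17 for Cox4i2. The settings reuse the same arrays, and Cox6a2 was named partly because its groups did not overlap. These counts are therefore a description and not separate support. The share of all genes that pass in every setting was not counted. The general form Cox6a1 read 2288, 2611, 2305 and 2254 in controls and 2651, 2849 and 2394 in knockouts (0.15, SE 0.11, limma adjusted p = 0.826), with groups that overlapped. Of 11 skeletal muscle markers tested (19 listed), 6 lay above 0 and 5 below, with a median of 0.03 and none past an unadjusted p of 0.05, and their summed intensity ran from 1150 to 1527 in controls and from 1302 to 1424 in knockouts. They ran from Myh4 at -0.19 (SE 0.19) to Myh2 at 0.27 (SE 0.18), both fast myosin heavy chains. The troponins went both ways, with Tnni2 at 0.21 (SE 0.13) and Tnnt1 at 0.14 (SE 0.15). Tnnt3 was at -0.15 (SE 0.17) and Tnnc2 at -0.18 (SE 0.16). Myh1 was under the filter on low signal.

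**Figure D2:**
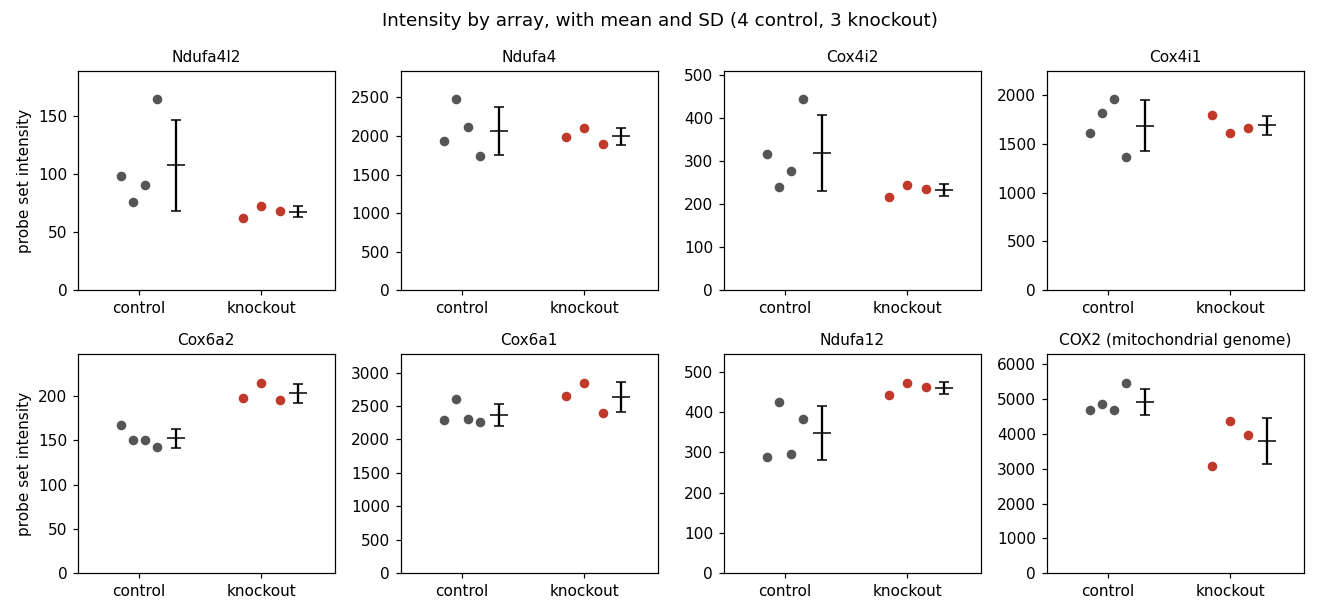
Probe set intensity (vertical axis, linear, from 0) of 8 genes by array, each point 1 mouse, with the group mean (horizontal tick) and SD (bar) beside the points. The 3 knockouts of Cox6a2 and Ndufa12 lie above all controls, those of Ndufa4l2 and COX2 lie below all controls, and control 4 is the highest array for Ndufa4l2, Cox4i2 and COX2.

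The other restricted forms of complex IV were read at low signal or with wide spread. Cox6b2, the testis form of subunit VIb, read 373, 355, 507 and 187 in controls and 457, 380 and 418 in knockouts (0.30, SE 0.25). Its control range spans that of the knockouts, and without control 4 the log2 fold change was 0.04. Cox8c, another testis form, read 80.4, 74.1, 57.8 and 102 in controls and 102, 80.2 and 107 in knockouts (0.26, SE 0.16). The heart and muscle forms Cox7a1 (-0.01, SE 0.14) and Cox8b (-0.09, SE 0.15) had intensities under 100 on all 7 arrays, and Cox7b2 read 27.2 to 44.4 and was not tested. The 6 tested restricted forms thus split into 3 above 0 and 3 below.

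To ask whether a restricted form moved against its general partner, the difference of the 2 log2 intensities was taken within each array for 7 pairs. This cancels a shift that both genes share on an array. For Cox6a2 minus Cox6a1 the differences were -3.65, -3.98, -3.80 and -3.85 in controls and -3.64, -3.63 and -3.51 in knockouts, so the groups did not overlap, with control 1 just under the nearest knockout. The knockouts were higher by 0.23 (two-sided exact permutation p = 0.0571, adjusted over the 7 pairs 0.40), and by 0.11 after quantile normalization, where the groups overlapped (exact permutation p = 0.257). Ndufa4l2 minus Ndufa4 differed by -0.47, and by -0.62 after quantile normalization, values that rest on knockout readings under the filter and are given with no test. Cox4i2 minus Cox4i1 differed by -0.41 (exact permutation p = 0.314). The other 4 pairs differed by -0.29 (Cox8b minus Cox8a) to 0.27 (Cox6b2 minus Cox6b1), with exact permutation p of 0.286 or more. With 7 arrays the smallest p possible is 0.0286, at which a single pair could not pass after adjustment over 7 pairs, and no pair passed.

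The general subunits of complex IV lay close to 0. Of 9, 6 lay above 0, from Cox7a2 at -0.12 (SE 0.13) to Cox8a at 0.20 (SE 0.16), which was 0.08 without control 4. Without that array Cox4i1, Cox5b and Cox6b1 turned below 0, at -0.08, -0.08 and -0.06, and Cox5a and Cox6a1 stayed above 0. Cox5a and Cox5b, which encode different subunits and are not forms of each other, had values of 0.09 (SE 0.13) and 0.03 (SE 0.13). Cox6b1, which links the monomers of the dimer, read 2368 ± 442 (SD, n = 4) in controls and 2388 ± 82.1 (SD, n = 3) in knockouts. Cox7a2l, a factor that links complexes III and IV into supercomplexes, read 1469, 1801, 1760 and 1419 in controls and 1459, 1487 and 1406 in knockouts (-0.14, SE 0.13). Its knockouts sat with controls 1 and 4 at the lower end of the range.

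Complex II feeds electrons from the citric acid cycle into ubiquinone and had the highest median of the 5 complexes, 0.16 over 4 genes, which was 0.04 without control 4. The catalytic subunits were at -0.02 (Sdha, the flavoprotein, SE 0.13) and 0.12 (Sdhb, the iron-sulfur protein, SE 0.19). The membrane anchors were at 0.21 (Sdhc, SE 0.14) and 0.25 (Sdhd, SE 0.16). Sdhd read 430, 333, 434 and 326 in controls and 508, 458 and 398 in knockouts. Controls 2 and 4 were low and controls 1 and 3 overlapped with knockout 3, and the limma adjusted p was 0.817. Sdhc read 909, 786, 934 and 720 in controls and 1083, 864 and 957 in knockouts, again with overlap. Sdhb read 480, 527, 580 and 314 in controls and 570, 489 and 461 in knockouts, with control 4 far under all other arrays, and its log2 fold change was -0.06 without control 4.

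Complex III, which passes electrons from ubiquinone to cytochrome c, had a median of 0.06 over 9 genes, 7 above 0, and -0.06 without control 4. The redox subunits Cyc1 (cytochrome c1) and Uqcrfs1 (the Rieske protein) were at 0.06 (SE 0.16) and 0.02 (SE 0.13). The core proteins were at 0.22 (Uqcrc1, SE 0.19) and 0.01 (Uqcrc2, SE 0.16), and at 0.03 and -0.09 without control 4. Uqcrc1 read 451, 427, 534 and 273 in controls and 498, 481 and 460 in knockouts, so that the highest and the lowest array were both controls. Uqcrb, a small subunit near the ubiquinone site, was the lowest of the complex at -0.09 (SE 0.15), and Uqcrh, the hinge protein that docks cytochrome c1, was at 0.15 (SE 0.14), or 0.06 without control 4.

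Complex V ran from Atp5md at -0.14 (SE 0.14) to Atp5g1 at 0.14 (SE 0.17), with a median of 0.05 over 17 genes, 11 of them above 0. Without control 4 only Atp5g1, Atp5g2, Atp5g3, Atp5k and Atp5mpl lay above 0. The complex then ran from -0.20 (Atp5h) to 0.06 (Atp5g2). The F1 catalytic head is encoded by Atp5a1, Atp5b, Atp5c1, Atp5d and Atp5e, which ran from -0.06 (Atp5b, the catalytic beta subunit, SE 0.13) to 0.08 (Atp5d, SE 0.17). Without control 4 these F1 genes all lay below 0, from -0.16 (Atp5b) to -0.01 (Atp5c1). Atp5a1, the alpha subunit, read 1466 ± 236 (SD, n = 4) in controls and 1517 ± 38.2 (SD, n = 3) in knockouts. Atp5g1, Atp5g2 and Atp5g3 encode the same mature c subunit of the proton-driven ring, and all lay above 0, at 0.14, 0.14 and 0.08 (SE 0.17, 0.15 and 0.11), or at 0.04, 0.06 and 0.02 without control 4. Atp5g1 read 951, 695, 1067 and 667 in controls and 909, 964 and 874 in knockouts. Controls 2 and 4 were below, and controls 1 and 3 near or above, the knockouts. Of the 9 stalk and membrane subunits, 4 lay above 0 and 5 below. Atp5l, subunit g, has 6 probe sets that ran from -0.15 to -0.11, Atp5g2 has 3 from 0.14 to 0.17, and Atp5h, subunit d of the stalk, has 3 from -0.12 to -0.11. Among the 17 members with several probe sets, only Atp5pb, subunit b of the stalk, had probe sets of opposite sign (0.13 and -0.04), and the median spread between probe sets of a gene was 0.04.

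The level of the members differed between control mice. As deposited, the members' median deviation from each gene's mean over the 7 arrays was -0.04, 0.09, 0.14 and -0.27 in controls 1 to 4 and 0.06, 0.05 and -0.03 in knockouts 1 to 3. Control 4 was the lowest array for 67 of the 89 members (75.3%), against 43.2% of all genes. Control 3 was the highest array for 38 members and control 2 for 26. The low values in control 4 were found in all 5 complexes, with medians from -0.14 (complex IV) to -0.33 (complex III). All 6 complex I core subunits, all 5 F1 subunits, and 8 of the 9 general complex IV subunits had their lowest value there. Among the exceptions Ndufa4l2, Cox4i2, Cox7a1 and Cox8b had their highest value there. After median centring control 4 was lowest for 66 members (74.2%, all genes 45.6%). After quantile normalization, which forces the 7 intensity distributions to be equal, it was lowest for 32 (36.0%, all genes 35.3%) and its median deviation was -0.06. The pattern therefore held under median centring but not under quantile normalization.

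**Figure D3:**
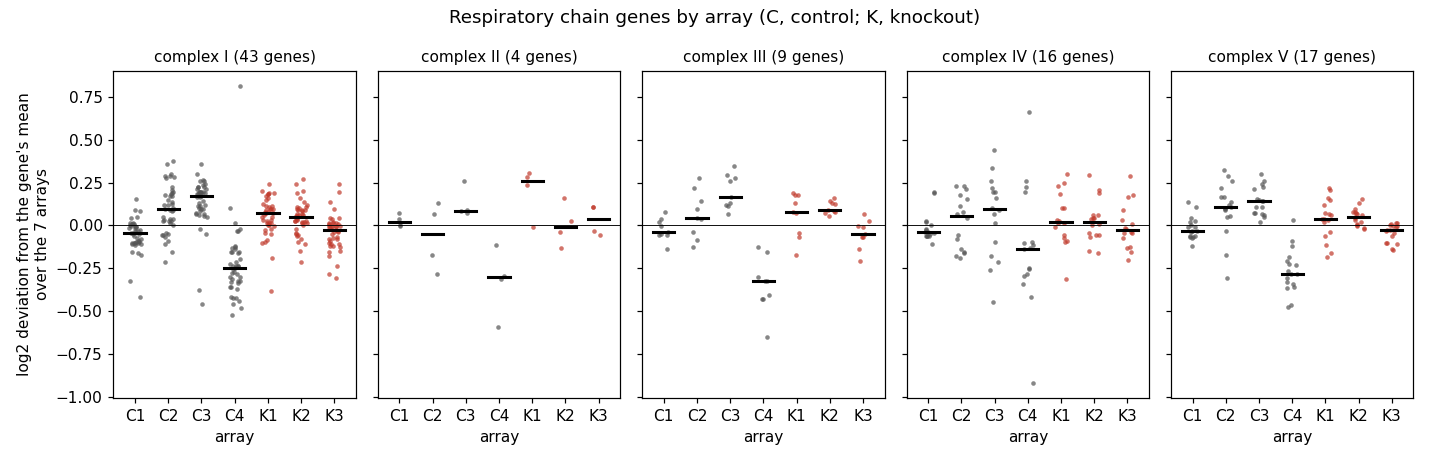
Log2 deviation of each gene from its own mean over the 7 arrays (vertical axis, no further normalization) for controls 1 to 4 (C1 to C4) and knockouts 1 to 3 (K1 to K3), 1 panel for each complex, with points for genes and bars for medians. Control 4 has the lowest median in every panel, from -0.14 in complex IV to -0.33 in complex III.

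Cell type markers moved with the same array. In control 4 the median deviation was -0.82 over 8 erythroid markers tested (16 listed), -0.73 over 11 B cell markers (12 listed), -0.64 over 14 cell cycle genes (15 listed) and -0.45 over 9 macrophage and monocyte markers (11 listed). It was -0.10 over 13 neutrophil markers, 0.21 over 11 skeletal muscle markers and 0.94 over 13 osteocyte markers. The summed erythroid intensity was 4364 in control 4 and 8018 to 9657 on the other 6 arrays. That of the 13 neutrophil markers was 39508 to 48360 over the 7 arrays, so RNA of blood and marrow cells remained in the preparation. Sums of different lists do not measure shares of cells. The summed osteocyte intensity was 13469 in control 4, 6262 to 7408 in the other controls and 4200 to 5198 in knockouts. Control 4 thus had the least erythroid, B cell, proliferation and macrophage signal and the most osteocyte signal of the 7 arrays. It also had the lowest respiratory chain signal as deposited, where the members' median deviation was -0.27, against -0.06 after quantile normalization. Dmp1, Mepe, Phex and Sost, which define osteocytes, were measured on every array. Between genotypes, 10 of the 13 osteocyte markers lay below 0 and 8 were lower at an unadjusted p under 0.05, against 2.71% of all genes. Tnfsf11, of the same list, was higher in every knockout than in every control (0.30, SE 0.13). The list was chosen with earlier results of these data known, so its counts are a description only. In the same comparison 8 of 8 erythroid and 11 of 11 B cell markers lay above 0, with medians of 0.23 and 0.37, against 67.7% of all genes above 0. Those medians rest on control 4: without it 4 of 8 erythroid markers lay above 0 with a median of 0.00, and 9 of 11 B cell markers with a median of 0.16. The osteocyte median was -0.91 with control 4 and -0.73 without it. The part of cell makeup in the respiratory chain values was not tested.

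**Figure D4:**
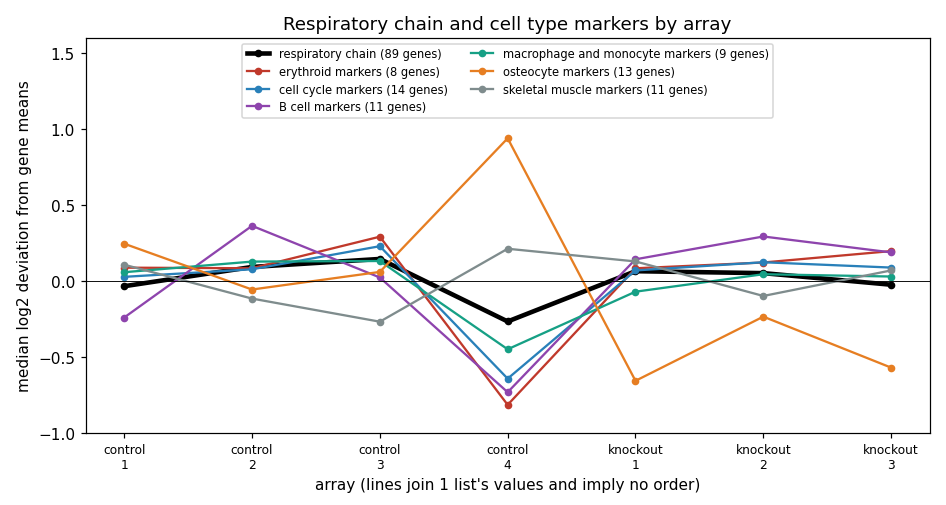
Median log2 deviation from gene means (vertical axis) of the respiratory chain genes (thick black line) and of 6 marker lists on each of the 7 arrays (horizontal axis), with lines joining the values of 1 list. In control 4 the respiratory chain is at -0.27 and the erythroid markers at -0.82, whereas the osteocyte markers are at 0.94.

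Genes around the chain were read from lists of other parts of mitochondrial metabolism. Of 41 assembly factors and related genes of complexes I to V, 32 were tested, 23 lay above 0 and 9 below, and their median was 0.06. The list includes Atpif1, Lrpprc and Taco1, which are not assembly factors in the strict sense. Tmem126b, a complex I assembly factor, was at -0.27 (SE 0.13) and Cox10, which makes haem for complex IV, at 0.27 (SE 0.14). Of 18 genes for mobile carriers and transporters, 14 were tested and 11 lay above 0, with a median of 0.09. Coq9, a ubiquinone synthesis protein, read 163, 164, 189 and 178 in controls and 217, 191 and 196 in knockouts (0.20, SE 0.12, limma adjusted p = 0.807). All its knockouts lay above all controls, by a narrow margin. Coq6, a hydroxylase of the same pathway, was at 0.17 (SE 0.12). Of 13 citric acid cycle genes, 12 were tested and split into 6 above and 6 below 0. Cs, citrate synthase, was at 0.18 (SE 0.16) and Idh3g, a regulatory subunit of isocitrate dehydrogenase, at 0.15 (SE 0.17). Of 20 regulators of mitochondrial biogenesis, 16 were tested and 11 lay above 0, with a median of 0.07. Twnk, the mitochondrial DNA helicase, was at 0.21 (SE 0.14) and Esrra, an estrogen-related receptor, at 0.19 (SE 0.14). Ppargc1a, the coactivator PGC-1 alpha, read 30.0 to 43.5 and was under the filter. None of these 74 genes had an unadjusted p under 0.05. Without control 4 the counts above 0 were 18 of 32 assembly and related genes and 8 of 14 carriers and transporters. They were 3 of 12 citric acid cycle genes and 7 of 16 regulators. Over all genes 67.7% lay above 0 with all arrays and 56.8% without control 4. Without that array Cs was at 0.05, Idh3g at 0.00 and Twnk at 0.14.

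Subunits encoded in the mitochondrial genome are not among the members, and 2 of them were tested. COX2, here cytochrome c oxidase subunit II of the mitochondrial genome and not the cyclooxygenase gene Ptgs2, read 4664, 4850, 4691 and 5462 in controls and 3064, 4367 and 3955 in knockouts. All knockouts lay below all controls, with knockout 1 lowest and control 4 highest. The means were 4917 ± 372 (SD, n = 4) and 3795 ± 666 (SD, n = 3), a log2 fold change of -0.38 (SE 0.12, limma adjusted p = 0.638). It was -0.33 without control 4 and -0.24 without knockout 1. Its second probe set gave the same -0.38, at 4022, 4189, 4037 and 4699 in controls and 2644, 3770 and 3408 in knockouts. It followed the first probe set closely on every array, so it is not counted as separate support. ND3, a complex I core subunit, read 1973, 2124, 1921 and 2568 in controls and 1487, 2024 and 1795 in knockouts (-0.28, SE 0.14, limma adjusted p = 0.789), and its second probe set gave -0.31. Knockout 2 of ND3 lay inside the control range. Both genes had their highest value in control 4, where 61 of 75 nuclear structural subunits found in most tissues had their lowest. The 75 nuclear subunits had a median log2 fold change of 0.04, and the difference between nuclear and mitochondrial subunits was not tested. An order of arrays like that of COX2 was also seen in other bright genes. Of 13 neutrophil markers, 6 lay above 0 and 7 below. Among them S100a8, S100a9 and Ngp were lower in every knockout than in every control, again with knockout 1 lowest.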

How the data were processed

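The authors deposited 1 linear intensity per probe set and array. The submitters' processing notes name PLIER and Affymetrix Expression Console 1.4. Settings, background correction and the build of the annotation were not given in the sources used here. A NuGEN kit labelled 30 ng of RNA per mouse, per the labels' protocols. Array medians ran from 87.3 to 107.7, so intensities still differ in distribution between arrays.

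Of 35556 probe sets, the 21789 that name 1 gene in the platform annotation were used, with the highest mean probe set per gene. A filter at the 30th percentile of mean log2 intensity (an intensity of 69.7) left 13938 genes. Log2(intensity + 16) was compared by knockout against control in limma 3.58.1 (R 4.3.3, mean-variance trend, no covariate, 5 residual degrees of freedom), with Benjamini-Hochberg adjustment over all genes. Pairs of forms were compared by exact permutation (Python 3.11.15).

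Members and gene lists were chosen with earlier results of these data known. Genes were named by rule: members whose groups do not overlap, the lowest and highest of each complex and the brightest members of each complex, all members of pairs of general and restricted forms, complex II and Cyc1, the 2 smallest p in each list, and Mbtps1. Other named genes were chosen by their role or after their values were seen. Alternatives changed the scaling, filter, offset, probe sets, variance model and replicate block, or left out 1 array.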

Additional observations from a re-analysis of the deposited data

Results flagged for a closer look

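In 56 sets of 4 control values, 2 held a value far from the other 3 by Dixon's test at its 95% level, a number that chance alone can give. Cox6a1 read 2611 in control 2, against 2254 to 2305 in the other controls, a gap of 0.856 of the control range. The difference of log2 Cox6b2 minus log2 Cox6b1 was -3.26 in control 4, against -2.60 to -2.52 in the other controls, a gap of 0.889 of the range. Cox6b2 read 187 and Cox6b1 1933 in that array.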

How the results depend on the processing

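No member passed an adjusted p of 0.05 under any of the 17 alternatives (smallest 0.164). Over all genes, 0 passed in the main comparison (904 at an unadjusted p under 0.05), 1 with median centring, 5 with array weights and 62 with the replicate block. Leaving out 1 array gave 0 to 5, with 5 without control 4 and 1 without knockout 2. COX2 passed only with the replicate block (-0.33, limma adjusted p = 0.0438), and over the other alternatives its adjusted p was at least 0.227. Members at an unadjusted p under 0.05 numbered 4, and 1 to 5 without 1 array (1 without knockout 1, 2 each without control 1, knockout 2 or knockout 3). The share of all genes moved too, from 6.49% to 2.33% without knockout 1 (members 1.12%) and 12.9% without control 4 (members 5.62%). Members above 0 numbered 58, but 36 with median centring, 33 with the replicate block, and 33 (without control 4) to 71 (without control 2) without 1 array. Over all genes the share above 0 was 67.7%, then 51.6% with median centring and 56.8% with the block or without control 4. Without control 2 it was 67.7%, against 79.8% of members. The members' median of 0.04 was -0.02 with median centring and -0.04 with the block, and -0.04 to 0.10 without 1 array. Mbtps1 ran from -0.37 (without knockout 3) to -0.14 (without knockout 2). Of 32 named members tested, 24 kept their sign under every alternative run, and Cox4i1, Cox6b1, Cox7a1, Cyc1, Ndufa4, Sdha, Sdhb and Uqcr10 did not. The cause was not tested. The 50th percentile filter left 83 members and no value for Ndufa4l2, Cox7a1, Cox8b or Cox8c. Deviations of same-numbered mice from their group means had correlations of 0.07, 0.15 and -0.53. Mice of different numbers were not compared, so these values cannot settle whether the numbers pair the samples. The block leaves control 4 without a partner, and its fold changes equal those without control 4.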
